A study of Mus musculus with 3 samples.

Results

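The progesterone receptor gene Pgr and 8 genes known as its ovulation targets (Adamts1, Ctsl, Snap25, Pparg, Hif1a, Zbtb16, Prkg2 and Abcb1b) were examined for H3K4me3, the trimethylated form of lysine 4 of histone H3 found at promoters. They were chosen by name but with earlier results of these data known. Their counts beside the shares of all genes are therefore no independent evidence. All 9 were found among the 21887 protein-coding genes of the annotation. Every peak that touched one of these genes or the 5 kb on either side was taken. The cells were granulosa cells, the somatic cells that surround the oocyte, from ovaries of wild type C57BL/6 female mice on postnatal days 21 to 28. All mice received 4 IU of eCG, which makes follicles grow, and ovulation was triggered with 5 IU of hCG, which acts on the LH receptor. Follicles were punctured for their cells before hCG (0 h), 4 h after it and 12 h after it. There was 1 library per time, so the differences have no replicate check and no test, and the sources used here do not give the number of mice behind a library.

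The progesterone receptor is a nuclear receptor that granulosa cells of preovulatory follicles induce after the LH surge, and female mice without it fail to ovulate. It binds progesterone-response elements, and at some promoters without such an element it acts through Sp1-type factors bound to GC boxes. Among its targets are a matrix protease, an exocytosis protein, other transcription factors, a kinase and a membrane transporter. H3K4me3 usually sits on the nucleosomes that flank an active or poised start site.

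The values are lengths: "covered bp" is the number of bp of a gene and its 5 kb flanks that lay within peaks, since the deposited lists give positions and no heights. A gene was called as having more or less covered bp when the values at the 2 times differed at least 2-fold, 0 included, and by at least 300 bp. The lists held 22236, 23662 and 20669 peaks at 0 h, 4 h and 12 h on chromosomes 1 to 19, X and Y and covered 8.87, 10.1 and 8.93 Mb, and sequencing depth is unknown. The narrowest peaks had 136, 139 and 152 bp. The peak names of the 12 h list lack a tag (nolambda) that the names in the other lists carry, and its label gives lane 5 where theirs give lane 4, so at 12 h time cannot be told apart from lane or from a possible difference in peak calling. Of 12 granulosa markers 10, 11 and 9 had a peak at 0 h, 4 h and 12 h, and Amh was listed at 0 bp at all times. Over all 21887 protein-coding genes 12322, 12757 and 12292 had a peak. Of 30 markers of theca, endothelial, immune, stromal and oocyte cells 5, 9 and 7 had one, with summed lengths of 3688, 6934 and 4469 bp, and 20 were at 0 bp at all times, including Pecam1, Cdh5, Cyp17a1, Acta2 and Zp3. Of the 10 with a peak at any time, 4 had another coding gene in their window. The theca marker Hhip had 273, 985 and 273 bp, the endothelial marker Kdr 0, 347 and 164 bp and the oocyte marker Gdf9 810, 1166 and 530 bp. The window of Gdf9 also holds another coding gene. Longest at 12 h were the theca marker Gli1 (864, 789 and 1220 bp) and the stromal marker Pdgfra (0, 0 and 192 bp). All others with a peak were longest at 4 h. The window of Gli1 also holds another coding gene. In these bulk libraries more cells of a type and more mark per cell cannot be told apart.

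RefSeq promoter sequences (build GRCm38.p6, the assembly of mm10) were matched for 6 of the 9 genes, with none used for Snap25, Zbtb16 and Prkg2. The 250 bases upstream of the start site are shown for 3 genes: Pgr itself, Abcb1b, which had no peak before hCG, and Adamts1, which had peaks on both sides of its start. They read 5′ to 3′ on the strand of the gene, and capitals mark the GC box GGGCGG and the CCAAT box, on either strand. The stretches are chr9:8899583-8899832 on the plus strand for Pgr, chr5:8797897-8798146 on the plus strand for Abcb1b and chr16:85803114-85803363 on the minus strand for Adamts1.
Pgr: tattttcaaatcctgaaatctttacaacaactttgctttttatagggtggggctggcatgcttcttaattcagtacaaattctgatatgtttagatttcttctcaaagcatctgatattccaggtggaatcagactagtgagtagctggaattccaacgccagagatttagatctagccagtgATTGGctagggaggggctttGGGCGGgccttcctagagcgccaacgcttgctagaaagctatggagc
Abcb1b: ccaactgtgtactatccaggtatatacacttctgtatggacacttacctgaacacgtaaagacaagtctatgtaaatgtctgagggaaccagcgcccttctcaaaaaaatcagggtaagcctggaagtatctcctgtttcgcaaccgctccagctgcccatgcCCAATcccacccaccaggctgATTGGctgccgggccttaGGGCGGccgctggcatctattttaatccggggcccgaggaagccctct
Adamts1: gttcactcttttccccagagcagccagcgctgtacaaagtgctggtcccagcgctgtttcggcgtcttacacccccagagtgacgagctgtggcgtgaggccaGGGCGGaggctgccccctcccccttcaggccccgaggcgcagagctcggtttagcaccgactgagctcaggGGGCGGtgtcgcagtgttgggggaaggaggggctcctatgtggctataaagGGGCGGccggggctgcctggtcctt

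In Pgr and Abcb1b an inverted CCAAT box (ATTGG) was followed by a GC box at nearly the same place. The first base of ATTGG lay 67 bp before the start of Pgr and 66 bp before that of Abcb1b, with 15 and 13 bp between the motifs. The order ATTGG and then GGGCGG on the strand of the gene, 10 to 20 bp apart, was found in 0.975% of 21238 promoter windows of protein-coding genes, each from 250 bp before to 50 bp after a start. This arrangement, with its order, strand and distance, was picked after the sequences were seen. Both motifs in any order and on either strand were found in 16.8% of all windows. Among these genes they were found in Pgr, Abcb1b and Pparg. Adamts1 held 3 GC boxes, at 147, 76 and 25 bp before its start. At least 1 GC box (GGGCGG on either strand) was present in 5 of the 8 windows of these genes, of which Pparg has 3, and in 46.2% of all windows. CCAAT on either strand was in 5 of 8 windows and 38.2% of all. The hypoxia motif core ACGTG was in 3 windows, those of Abcb1b, Ctsl and Hif1a, and in 20.8% of all. Searches on both strands for the consensus palindromic progesterone-response element, found in 0.00942% of all windows, and for its single repeat TGTTCT, found in 16.2%, matched none of the 8. The same was true of the cyclic AMP element TGACGTCA (2.24% of all) and the AP-1 element TGANTCA (6.99%), while the shorter TGACG, which the former contains, was in the window of Adamts1 and in 23.6% of all. The ratio of observed to expected CpG was 0.427 at Pgr and 0.535 at Abcb1b, and at the 3 starts of Pparg it was 0.909, 0.467 and 0.170, against a median of 0.567 over all windows. These values describe letters in a short window.

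Before hCG, Pgr and 5 of its targets had called peaks, and Snap25, Prkg2 and Abcb1b had none, which does not show that the mark was absent. At 4 h all 9 had a peak, and at 12 h all 9 still had one. Over all 21887 protein-coding genes 12322, 12757 and 12292 had a peak in their window at 0 h, 4 h and 12 h. A peak within 1 kb of a start site, or of a gene end where no start was available, was present for 6 of 9 genes at 0 h, 9 at 4 h and 8 at 12 h, against 49.2%, 50.8% and 48.9% of all protein-coding genes. With a limit of 500 bp the counts were 6, 7 and 7, against 46.7%, 48.5% and 46.5% of all genes. Pgr then had such a peak at 0 h alone and Prkg2 at no time. With 2.5 kb the counts were 6, 9 and 9, against 50.9%, 52.5% and 50.7%. A peak at all 3 times was found for 6 of 9 and for 53% of all genes. The pattern of no peak at 0 h and a peak at both later times, seen in 3 of 9, was found in 1.63% of all genes, and in 3.73% of the 9565 genes with no peak at 0 h.

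**Figure D1:**
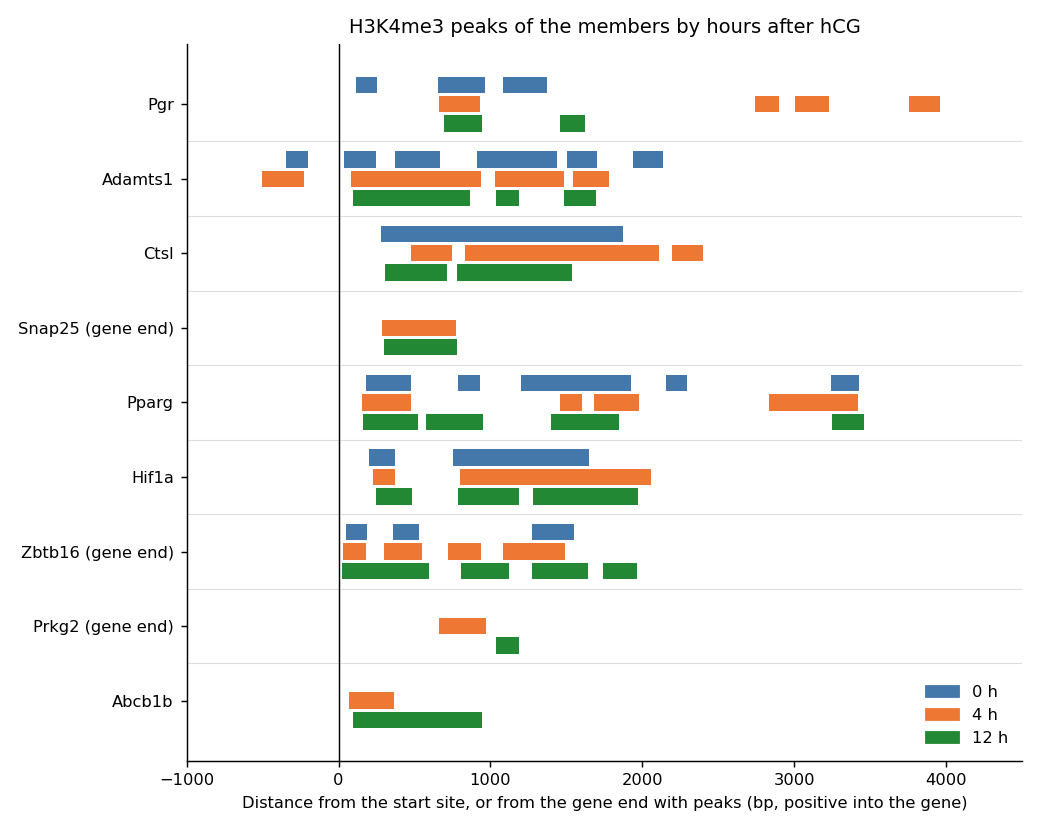
Horizontal bars are the H3K4me3 peaks of the 9 genes, drawn to scale by distance in bp from the most upstream start site, or from the gene end with peaks where no start site was available, with a color for each time after hCG. Snap25, Prkg2 and Abcb1b have no bar at 0 h, and only Adamts1 has bars before the start. Peaks farther inside Pparg and Prkg2 lie outside the range shown.

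The receptor gene Pgr had 740 covered bp at 0 h, 845 at 4 h and 414 at 12 h. Scaled by the total covered bp of each library, the values at 0 h, 4 h and 12 h were 776, 777 and 432 bp, and no difference between these met the rule for a call. With peaks within 1 kb joined they were 1258, 1487 and 928 bp, and with narrow peaks left out 599, 688 and 252 bp. The value at 12 h was thus the lowest in each case, while that at 4 h was equal to or above that at 0 h. The positions differed between times more than the length did between 0 h and 4 h. One region was marked at all times, chr9:8900485-8900795 at 0 h, 652 to 962 bp after the start site used here. The annotated gene begins farther upstream, at chr9:8898900, so the promoter printed above lies inside it. The 0 h library also had a peak of 141 bp that began 115 bp after the start and one of 288 bp that began 1085 bp after it, and neither was overlapped by a peak at 4 h or 12 h. At 4 h the other peaks lay farther in, with widths of 157, 218 and 200 bp between 2739 and 3955 bp after the start, and none of these was overlapped at 0 h or 12 h. At 12 h the second peak had 162 bp and began 1458 bp after the start. Of the peaks found at a single time, those of 141, 157 and 162 bp were narrow, at percentiles 8.77, 14.7 and 9.96 of the widths in their lists. Those of 288, 218 and 200 bp were at percentiles 46.2, 32.2 and 28.4. Within the first 1 kb after the start site used here the covered length was 452 bp at 0 h, 270 at 4 h and 252 at 12 h. Among all genes with a peak, Pgr stood at percentile 39.6 for covered bp at 0 h, 44.6 at 4 h and 15.5 at 12 h.

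Snap25, which encodes a SNARE protein of regulated exocytosis, had 0 bp at 0 h, 488 at 4 h and 479 at 12 h. It was a single peak in nearly the same place, chr2:136713722-136714209 at 4 h and chr2:136713737-136714215 at 12 h, beginning 283 and 298 bp inside the gene. The lncRNA gene Gm32659 overlaps this peak, so the mark cannot be assigned to Snap25 alone.

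Abcb1b, which encodes a P-glycoprotein that pumps drugs and lipophilic molecules out of the cell, had 0 bp at 0 h, 295 at 4 h and 844 at 12 h. Its single peak began next to the start at both later times, 71 and 98 bp after it, and its far edge lay 365 bp into the gene at 4 h and 941 bp at 12 h. The promoter printed above lies just upstream of it. The lncRNA gene Gm5106 overlaps the peak as well. The neighbouring relative Abcb1a had 479, 289 and 769 bp, so it was also longest at 12 h but was marked before hCG, and the sources used here do not say how reads matching several places were treated. The window of Abcb1a also holds another coding gene.

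Prkg2, the gene of a membrane-bound kinase activated by cyclic GMP, had 0 bp at 0 h, 958 at 4 h and 1010 at 12 h. Most of this was not at a gene end. A pair of peaks, chr5:98942297-98942664 and chr5:98942721-98942999 at 4 h, lay inside the gene more than 94 kb from the marked end and had 368 and 279 bp, and the corresponding peaks at 12 h had 506 and 352 bp. Near the marked end there was 1 peak of 311 bp at 4 h, 662 bp inside the gene, and 1 of 152 bp at 12 h, 1033 bp inside. These last peaks did not overlap each other, and the one at 12 h had the narrowest width of its list.

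Zbtb16, the gene of the zinc finger transcription factor PLZF, had 578 bp at 0 h, 1020 at 4 h and 1470 at 12 h. Its window also holds the coding gene Gm32280, and each peak there overlapped no annotated gene other than Zbtb16. Peaks lay in the same stretch at all times. There were 3, 4 and 4 of them, and the one nearest the gene end had 136 bp at 0 h, the narrowest width in that list, 146 bp at 4 h and 573 bp at 12 h. The distance from the first to the last marked bp was 1497, 1458 and 1942 bp. Among genes with a peak, Zbtb16 moved from percentile 25.8 at 0 h to 57.7 at 4 h and 89.0 at 12 h.

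Adamts1, Ctsl, Pparg and Hif1a were marked at all times. Adamts1, a secreted protease that cleaves the matrix proteoglycan versican, had 1572, 1831 and 1131 bp at 0 h, 4 h and 12 h, a lower value at 12 h than before hCG. It had 6 peaks at 0 h and 4 at 4 h, among them one of 860 bp from 79 to 938 bp inside the gene. A peak upstream of the start, 144 bp wide at 0 h and 278 bp at 4 h, was not found at 12 h. It was at percentile 91.7 of all genes with a peak at 0 h, 93.3 at 4 h and 72.8 at 12 h.

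Ctsl, the gene of the lysosomal protease cathepsin L, had 1592, 1753 and 1171 bp. At 0 h this was 1 unbroken peak of 1592 bp, at percentile 99.8 of the widths in that list. At 4 h it was 3 peaks, the widest 1278 bp, and at 12 h it was 2 of 758 and 413 bp. Like Adamts1, the gene had less covered bp at 12 h than at 0 h.

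Hif1a, the oxygen-regulated subunit of a hypoxia-inducible transcription factor, had 1069 bp at 0 h, 1397 at 4 h and 1325 at 12 h. A narrow peak of 174, 146 and 236 bp lay at 198, 226 and 246 bp after the start site used here. It was followed by 1, 1 and 2 wider peaks. These ended 1650 bp after that start at 0 h, 2052 bp at 4 h and 1972 bp at 12 h. The annotated gene begins farther upstream, at chr12:73901324. Pparg, a nuclear receptor gene active in lipid metabolism, had 1479, 1587 and 1403 bp, and met the rule for a call in no comparison. Its peaks lay around the first and second annotated starts, and the third start, farther inside the gene, had no peak within 1 kb at any time.

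**Figure D2:**
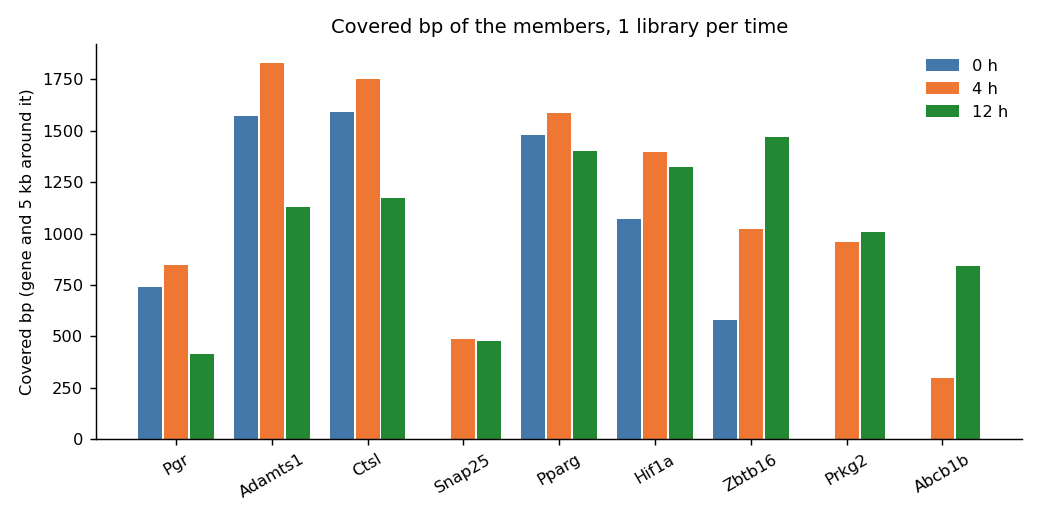
Bars give the covered bp of each gene and the 5 kb around it at 0 h, 4 h and 12 h, with 1 library per time and so no error bars. Snap25, Prkg2 and Abcb1b stand at 0 at 0 h, and Zbtb16 goes from 578 to 1470 bp.

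The library from before hCG was compared with the one from 4 h after it. All 9 genes had a higher value at 4 h, but Ctsl and Pparg were lower with scaling, Adamts1 (2478 and 2287 bp) and Zbtb16 (1497 and 1458 bp) with peaks within 1 kb joined, and Hif1a (1582 and 1569 bp) with a window of 10 kb. With scaling Pgr was equal to within 1 bp. Scaling shifts every log2 ratio by -0.19 from 0 h to 4 h, by 0.18 from 4 h to 12 h and by -0.01 from 0 h to 12 h. Snap25 (488 bp against 0) and Prkg2 (958 against 0) were called as having more, 2 of 9, where 7.56% of the 13075 genes with a peak at either time met the same rule. No member was called as having less, against 2.43% of genes. Abcb1b missed the call by its length, 295 bp against 0. With scaling the shares of all genes were 5.38% and 3.77%, and the same 2 genes were called. The 6 genes marked at both times had log2 ratios from 0.10 (Pparg) to 0.82 (Zbtb16), with a median of 0.21, against 0.12 for the 12004 genes marked at both times. The 5th and 95th percentiles of those genes were -0.75 and 1.14, and all 6 ratios lay between them. The 4 h list was also the longest in peaks and covered bp, and the summed length at markers of other cell types was highest there. Of the 10 such markers with a peak at any time, 4 had another coding gene in their window. That sum therefore cannot be assigned to those cell types alone. The part of list length or of other cell types in these differences was not tested.

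The libraries from 4 h and 12 h were compared in the same way. Abcb1b had more (844 bp against 295, a log2 ratio of 1.52) and Pgr less (414 against 845, a ratio of -1.03). These were 1 call in each direction, where 2.48% of 13085 genes were called as more and 6.99% as less. With scaling the shares were 3.42% and 4.76%, and Pgr was no longer called, with 777 and 432 bp. It was not called with peaks within 1 kb of each other joined either, at 1487 and 928 bp, nor with a 3-fold limit or a smallest difference of 600 bp, and the last 2 also ended the call of Abcb1b. Adamts1 had a log2 ratio of -0.70 and Ctsl one of -0.58, both under the limit for a call. Snap25, Prkg2 and Hif1a had ratios of -0.03, 0.08 and -0.08, and with scaling Snap25, Hif1a and Pparg (-0.18) were higher at 12 h. Hif1a was also higher without the narrowest peaks or with lists of equal length (1251 and 1325 bp in both), and Prkg2 was lower with narrow peaks left out (958 and 858 bp). The median over the 9 genes was -0.08, against -0.14 over 11964 genes marked at both times. The 5th and 95th percentiles of those genes were -1.09 and 0.68. Abcb1b lay above this range, and all other members, Pgr included, lay within it.

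Across the whole interval from 0 h to 12 h, 4 of 9 genes were called as having more: Snap25 (479 bp against 0), Prkg2 (1010 against 0), Abcb1b (844 against 0) and Zbtb16 (1470 against 578, a log2 ratio of 1.35). Of the 12885 genes with a peak at either time 5.88% were called as more and 5.59% as less, and no member was called as less. The call of Zbtb16 was lost with peaks within 1 kb joined, where the lengths were 1497 and 1942 bp. Pgr had a log2 ratio of -0.84, Adamts1 one of -0.48 and Ctsl one of -0.44, and Pparg (-0.08) and Hif1a (0.31) were nearer to 0. The direction of these last genes turned with a setting: Hif1a had 1582 and 1325 bp with a window of 10 kb, and Pparg had 1197 and 1403 bp with narrow peaks left out and 1343 and 1403 bp with equal numbers of peaks. Among the 6 genes marked at both times the median was -0.26, against -0.02 for 11729 genes. The 5th and 95th percentiles of the latter were -1.01 and 1.01. Zbtb16 lay above this range, and the others of the 6, Pgr included, lay within it. The comparisons share libraries with each other, so their values are given side by side and not as independent evidence.

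**Figure D3:**
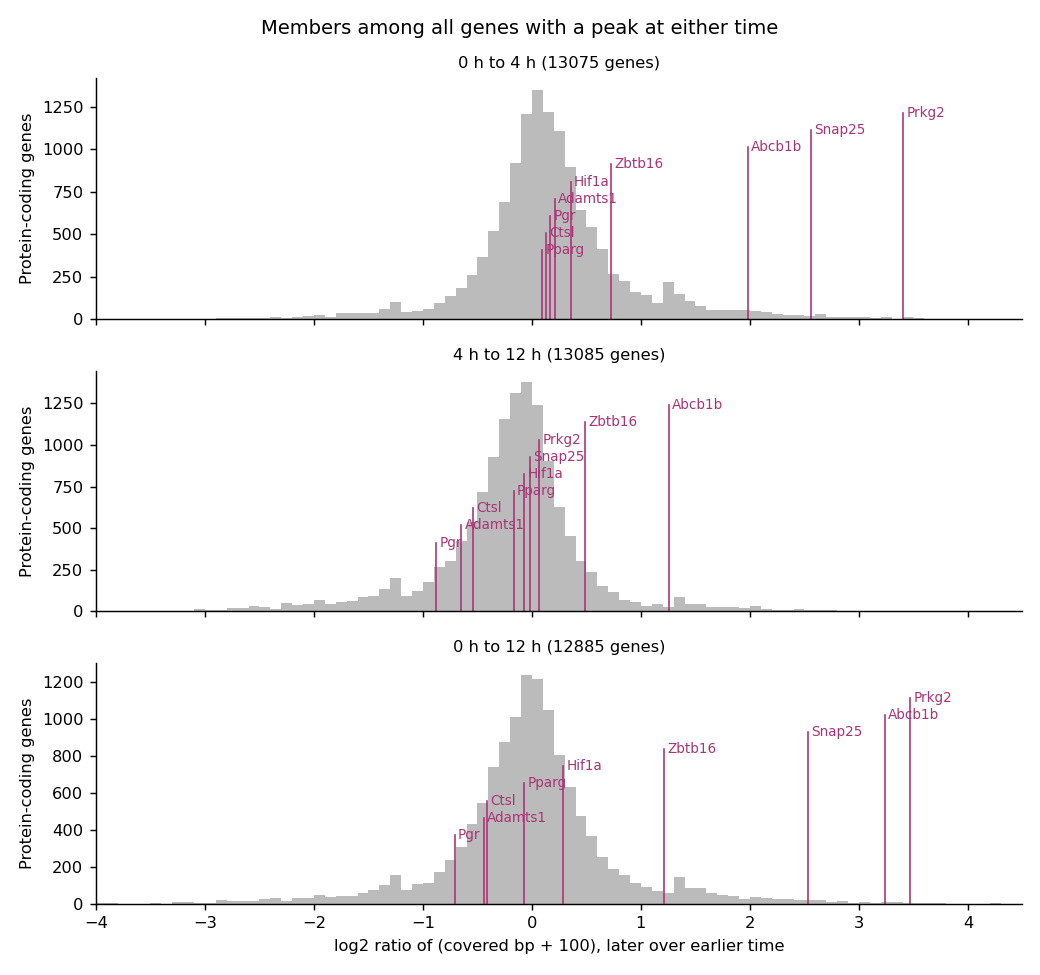
Grey histograms count protein-coding genes with a peak at either time by the log2 ratio of covered bp plus 100, later over earlier time, in 3 comparisons, and the vertical lines mark the 9 genes (line height has no meaning). Prkg2, Snap25 and Abcb1b lie to the right in the comparisons with 0 h, and Pgr lies on the left at 12 h.

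Around the start the mark lay inside the gene. The start site itself was in a peak at 1 of 6 member starts with a peak within 1 kb at 0 h (the second start of Pparg), at 0 of 7 at 4 h and at 0 of 7 at 12 h. The same form was seen over all genes. Of 10381, 10693 and 10339 start sites with a peak within 1 kb, 10.6%, 13.1% and 12.1% were covered at the start itself, and the highest share, 68.1%, 70.8% and 69.3%, was reached 350, 175 and 325 bp inside the gene. The 1 kb after the start held more covered bp than the 1 kb before it at 6 of 6, 7 of 7 and 6 of 7 member starts, and at 81.2%, 82.3% and 82.3% of all. Of the promoters printed above, those of Pgr and Abcb1b held no peak bp at any time in the window from 250 bp before to 50 bp after the start, and that of Adamts1 held 61, 24 and 0 bp.

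**Figure D4:**
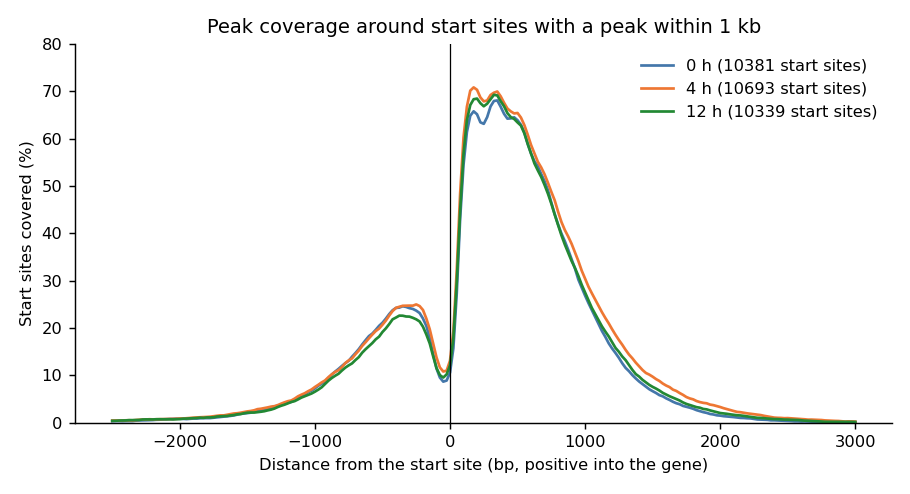
Lines give the share of start sites of all protein-coding genes covered by a peak at each distance from the start, among starts with a peak within 1 kb, at 0 h, 4 h and 12 h. The share is highest inside the gene, with a lower shoulder upstream. Between these it dips 50 bp before the start, to 8.69%, 10.8% and 9.56%. Toward both ends of the range it falls below these values.

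The peaks of the 9 genes were 20 at 0 h, 27 at 4 h and 23 at 12 h, with summed lengths of 7030, 10174 and 9247 bp. All 20, 24 of 27 and 21 of 23 lay within 5 kb of the start site or marked end, the exceptions being the peaks deep inside Prkg2 and Pparg. Peaks found at a single time numbered 4, 6 and 3, or 20%, 22.2% and 13.0% of these peaks, against 12.8%, 16.6% and 10.4% of all peaks. Pgr supplied 2, 3 and 1 of them. The 5 genes closest to Pgr in covered bp over the 3 times were Dusp22, A630095N17Rik, Icosl, Ppfibp1 and Camk2b, with Euclidean distances of 0.06 to 0.10 in log2(covered bp + 100). Dusp22 had 709, 863 and 410 bp. In all 33 genes lay within 0.2 of Pgr.

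A list of 14 other ovulatory genes linked to the receptor was read in the same way, and it is no independent evidence, since it was drawn up with results for Areg, Ptgs2 and Il6 known. It holds genes such as Areg and Ereg, EGF-like ligands of cumulus expansion, and Edn2, an endothelin that contracts the follicle wall. At 4 h 6 of the 14 were called as having more and 0 as less: Areg (0 and 977 bp at 0 h and 4 h), Ptgs2, the inducible prostaglandin synthase (0 and 794), Ereg (136 and 478), the chemokine receptor gene Cxcr4 (554 and 1540), the transcription factor gene Runx1 (502 and 1327) and the coregulator gene Cited2 (839 and 1998). Of all genes 7.56% were called as more and 2.43% as less. With scaling 5 were called, without Ereg, against 5.38% of all genes. The median log2 ratio of the 7 marked at both times was 1.25, against 0.12 over all genes. At 12 h Areg and Ptgs2 had 0 bp, while Cxcr4 (1625 bp) and Runx1 (1440 bp) remained above their 0 h values by the rule for a call. Il6, an interleukin gene, had 547 bp at 12 h alone, and Edn2 had 240 bp at 12 h alone, too short for a call. Adcyap1r1, the receptor gene for the peptide PACAP, was at 0 bp at all times. Arnt, the dimer partner of Hif1a, had 722, 1169 and 927 bp, and its window also holds another coding gene. Epas1, a relative of Hif1a, had 1411, 1593 and 1367 bp. Vegfa, an angiogenic factor gene, had 1367, 2091 and 1618 bp, and these 3 genes were not called.

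**Figure D5:**
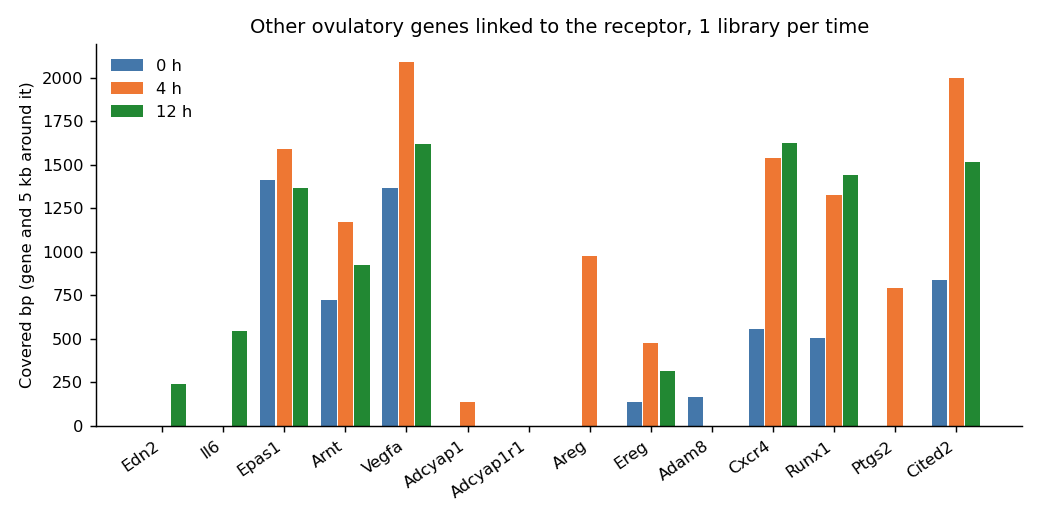
Bars give the covered bp of 14 other ovulatory genes linked to the progesterone receptor at 0 h, 4 h and 12 h, 1 library per time. Areg and Ptgs2 have a bar at 4 h alone, Il6 and Edn2 at 12 h alone, and Cxcr4 and Runx1 stay at 1327 bp or more after hCG.

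All 18 chaperone and cofactor genes of the receptor had a peak at the promoter at each time. Of all protein-coding genes 49.2%, 50.8% and 48.9% had one at 0 h, 4 h and 12 h. From 0 h to 4 h 1 was called as more, the AP-1 relative Jdp2 (353 and 729 bp). From 0 h to 12 h 1 was called as more, the coactivator gene Ncoa3 (574 and 1179 bp). Neither count of 1 in 18 exceeded the share of all genes, 7.56% and 5.88%. With scaling Jdp2 was not called, and Sp1 was called as more from 4 h to 12 h. The median log2 ratios of the list were 0.10, -0.19 and 0.03, against 0.12, -0.14 and -0.02 over all genes, and with scaling the first was -0.09. The window of Ncoa3 also holds other coding genes. Fkbp5, an HSP90 cochaperone, had 1357, 1398 and 1103 bp. Of the factors that bind GC boxes, Sp1 had 319, 215 and 500 bp and Sp3 1132, 1320 and 1224 bp.

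Of 13 other progesterone-binding and steroid receptor genes, 10, 11 and 10 had a peak at 0 h, 4 h and 12 h. Over all 21887 protein-coding genes these numbers were 12322, 12757 and 12292. None was called between 0 h and 4 h or between 4 h and 12 h. The estrogen receptor gene Esr1 was called as less from 0 h to 12 h, with 2907, 1833 and 1295 bp at the 3 times, where 5.59% of all genes were called as less. Among membrane progestin receptors Paqr7 had 1762, 1781 and 923 bp and Paqr8 675, 896 and 672 bp, while Paqr5 and Paqr6 were at 0 bp at all times. Among 19 family relatives of the 9 genes Adamts9 was called as more at 4 h (1334 and 3002 bp), and from 4 h to 12 h Ppara was called as less (1631 and 774 bp) and Abcb1a as more (289 and 769 bp). These single calls stand beside 7.56%, 6.99% and 2.48% of all genes, and with scaling Adamts9 and Ppara were not called. Snap23, the widely expressed relative of Snap25, had 1401, 1615 and 1054 bp, and Prkg1 had 1212, 1215 and 902 bp. Both windows had peaks before hCG, when Snap25 and Prkg2 were at 0 bp. Other coding genes also lie in these windows and in those of Paqr7, Ppara and Abcb1a. The lengths there cannot be assigned to the named genes alone.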

How the data were processed

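The authors deposited 1 peak list per sample, with chromosome, start, end and name of each peak, and no score. The submitters' processing notes list mm10 as the build and, as tools, MACS2 2.0.9, CASAVA 1.8 and Bowtie2 2.2.3. The sources used here do not give the peak threshold or the use of the input DNA. Libraries had 18 PCR cycles, per the labels' protocols.

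Genes were those of the RefSeq table for GRCm38.p6 on chromosomes 1 to 19, X and Y, and start sites came from the RefSeq promoter table. Peaks on the mitochondrial genome were left out. Covered bp were computed with Python 3.11.15, pandas 2.3.3 and numpy 2.4.6, and the code was tested on simulated data. The 9 genes, the lists and the rules were chosen with earlier results of these data known. Named genes were the 9, the 5 most like Pgr, and the listed genes that were called; other listed genes were picked with their values in view. The result for 1 listed gene is not reported here. Alternatives were other windows, whole peaks, joined peaks, narrow peaks left out, equal numbers of the widest peaks, scaling, and other limits for a call.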

Additional observations from a re-analysis of the deposited data

How the results depend on the processing

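No paired analysis was possible because there was 1 library per time. Counts of called genes were recomputed under 13 alternatives. From 0 h to 4 h the genes called as more numbered 1 to 3 (2 as reported) and those called as less 0 in all 13, and the share of all genes called as more was between 3.67% and 14.3% and as less between 0.627% and 4.84%. From 4 h to 12 h these shares were 0.726% to 4.68% and 2.68% to 14.4%, and from 0 h to 12 h 2.69% to 10.4% and 2.17% to 10.7%. Scaling of the gene lists was chosen after seeing the data. With a smallest difference of 600 bp 1 gene had more from 0 h to 4 h (Prkg2), and 0 had more and 0 less from 4 h to 12 h. With a 3-fold limit the counts from 4 h to 12 h were also 0 and 0, and with a 1.5-fold limit 2 genes had less (Pgr and Adamts1). Genes with less from 4 h to 12 h were 0 with joined peaks and 0 with scaling. From 0 h to 12 h 1 gene (Pgr) had less with the 1.5-fold limit and 1, again Pgr, with narrow peaks left out (599 and 252 bp). Prkg2 kept its calls in all 13 alternatives, Abcb1b its call from 0 h to 12 h in 13, Snap25 each of its calls in 12, Zbtb16 in 11 and Pgr in 9. Of 243 differences of single genes under 9 alternatives, 238 kept their call or lack of one, 5 changed it and 0 of the called ones turned direction. Several alternatives could hardly move a call. Windows of 1 kb and 2.5 kb and whole peaks left the lengths of all 9 genes unchanged. The gene alone changed only Adamts1, and the 10 kb window only Hif1a. Differences from 0 bp could not turn direction, so these numbers are a weak check. Differences too small for a call turned sign under scaling, joined peaks, the 10 kb window, narrow peaks left out or equal numbers of peaks, in the genes named beside each comparison. Peak lists give no depth, so a length of 0 says that no peak was called and not that the mark was absent.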

Other observations

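A peak of 239 bp deep inside Pparg, chr6:115436126-115436364, was found at 4 h alone, 74982 bp after the first start and in no other annotated gene. It was not overlapped by a peak at 0 h or 12 h. Just beyond the window of Hif1a, 5757 bp past the end of the gene, the 0 h library had a peak of 513 bp (chr12:73953311-73953823), and the 4 h library had one of 172 bp that began 5572 bp past the end and did not reach the first. At 12 h there was no peak between 5 and 10 kb from Hif1a, and the other 8 genes had none there at any time.

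The granulosa markers differed among themselves. Cyp19a1, the aromatase gene, had 2045, 845 and 382 bp at 0 h, 4 h and 12 h, Hsd17b1, which encodes an estradiol-forming enzyme, 3146, 1304 and 349 bp, and Foxl2, a transcription factor gene of granulosa identity, 757, 356 and 543 bp. Of the 12 granulosa markers 3 were called as less from 0 h to 4 h and 5 from 0 h to 12 h, against 2.43% and 5.59% of all genes, and none as more, with or without scaling. From 4 h to 12 h 4 were called as less, against 6.99% of all genes, and none as more. With scaling this count was 2, against 4.76%, and Cyp19a1 and Fshr were no longer called. Gja1, the gene of a gap junction protein of granulosa cells, had 1398, 1917 and 1829 bp and was not called. Called as less from 0 h to 12 h besides Cyp19a1 and Hsd17b1 were Inha, an inhibin subunit gene (780, 995 and 0 bp), Fshr, the FSH receptor gene (1707, 1495 and 675 bp), and the nuclear receptor gene Nr5a2 (586, 479 and 203 bp). The windows of Hsd17b1 and Inha also hold other coding genes.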
